A study of Mus musculus with 24 samples.

Results

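This account follows 33 genes of the brain's blood vessels and of the blood-brain barrier through the anterior cingulate cortex of 24 mice. The genes were chosen by name as vessel genes, with earlier results of these data known, and all 33 were found among the 15232 genes measured. They comprise 25 genes of endothelial cells, which line the vessels, 4 of pericytes, which wrap the capillaries, 3 of smooth muscle cells, which ring the larger vessels, and Vegfa, the growth factor to which endothelial cells respond. A mean of at least 1 FPKM over the 24 libraries was asked for before a gene was tested. FPKM counts fragments per kilobase of a gene's length after allowing for the size of the library, so that levels of different genes can be set side by side. Of the 33 genes, 32 reached that level, and 12572 genes did in all. The one that did not was the endothelial transcription factor gene Sox17, with a mean of 0.462 FPKM.

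Each library was made from bulk poly(A) RNA of the cingulate cortex of 1 mouse, with no sorting of cells. The labels give 3 arms of 8 mice, with 4 females and 4 males each: untrained wild type (WT), untrained Thbs1/2 KO and trained Thbs1/2 KO. The KO mice are labelled as lacking both thrombospondin genes, Thbs1 and Thbs2. The alleles, any cell type to which the loss is limited, the strain background and the age are not given in the sources used here. Trained mice worked in an operant (Skinner) box, were deprived of food for it and gave RNA within 1 hour of the behavioural test, while untrained mice are labelled as having had no treatment, so that training and food deprivation cannot be told apart. Trained wild-type mice were not analysed here.

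Brain endothelial cells are joined by tight junctions built on claudin-5 and carry few vesicles, so that nutrients cross only on dedicated carriers such as the glucose transporter GLUT1 and drugs are pumped back by P-glycoprotein. Pericytes are recruited through the receptor PDGFRβ and keep this barrier tight, while VEGF-A from neurons and glia drives vessel growth and, in excess, leakage. Thrombospondins 1 and 2 are secreted matrix proteins, made by astrocytes among other cells, that restrain the growth of vessels, partly through receptors on endothelial cells and partly by binding VEGF. In bulk tissue, fewer vessel cells and less RNA per vessel cell cannot be told apart.

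Both thrombospondin genes went against what the genotype labels say. Thbs1 stood at 0.512 ± 0.147 FPKM (SD, n = 8) in the arm labelled WT, at 3.68 ± 0.840 in the untrained arm labelled KO and at 4.63 ± 0.690 in the trained arm. For Thbs2 the means were 2.02 ± 0.294, 3.51 ± 0.378 and 3.29 ± 0.227 FPKM in the same order. Every direction between genotypes given here therefore rests on the labels, and libraries are called labelled WT or labelled KO throughout. Reads recovered from the steps of the FPKM values came to 12898226 to 19991770 a library in the arm labelled WT, 12343773 to 27233267 in the untrained arm labelled KO and 16796512 to 20414047 in the trained arm. The deepest, male untrained library 3 labelled KO, stood apart: 6 markers of cortical excitatory neurons summed to 38.8 FPKM there while the same sum was 128 to 165 elsewhere in that arm, and 6 striatal markers summed to 335 FPKM, with 54.0 to 226 elsewhere. The animal numbers in the labels divide the mice further. All 8 trained mice, 2 untrained males labelled KO and 1 untrained male labelled WT have numbers over 1000, and the other 13 have lower ones.

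Of the 7 genes that passed the test in at least 1 comparison of arms, 3 had an upstream sequence in the RefSeq promoter table used here (21 of the 33 genes did). These are printed to show their start regions. Ly6c1 was higher and the ligand gene Vegfa lower in trained mice than in either untrained arm. Mfsd2a passed only between trained mice and untrained mice labelled WT, where it was higher in the trained ones. Each is the stretch before the first listed start, cut back where an annotated transcript of the gene reaches further, 5′ to 3′ on the minus strand of build GRCm38.p6. Capitals mark matches on either strand to the motif TATAAA of the core promoter, to GGGCGG, bound by Sp1 family factors, or to ACGTG, the core of the hypoxia response element, and no match overlaps another.
Ly6c1, chr15:75048921-75049087: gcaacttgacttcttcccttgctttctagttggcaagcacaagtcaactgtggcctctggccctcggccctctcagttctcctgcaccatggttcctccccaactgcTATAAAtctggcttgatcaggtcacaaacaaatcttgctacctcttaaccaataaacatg
Mfsd2a, chr4:122961195-122961438: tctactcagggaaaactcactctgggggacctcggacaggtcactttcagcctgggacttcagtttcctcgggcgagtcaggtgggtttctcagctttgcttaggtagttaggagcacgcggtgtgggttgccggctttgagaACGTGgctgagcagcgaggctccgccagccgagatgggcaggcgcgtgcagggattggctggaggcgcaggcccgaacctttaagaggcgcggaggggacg
Vegfa, chr17:46032378-46032627: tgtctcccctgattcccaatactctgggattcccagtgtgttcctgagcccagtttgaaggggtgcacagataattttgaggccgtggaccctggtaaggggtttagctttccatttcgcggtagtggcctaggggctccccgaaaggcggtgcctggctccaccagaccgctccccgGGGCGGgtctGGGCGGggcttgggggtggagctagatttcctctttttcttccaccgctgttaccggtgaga

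Over the full 250 bases before its start, Ly6c1 had 1 CpG and a GC content of 48.4%, Mfsd2a 17 CpG and 61.6%, and Vegfa 11 CpG and 59.2%, against a median of 6 CpG over the promoters of all 27025 genes in the table. TATAAA occurred in 13% of those promoters and in 4 of the 21 vessel genes (Flt1, Vtn, Ctla2a and Ly6c1). GGGCGG occurred in 32.9% of all promoters and in 8 of the 21 (Myl9, Slc2a1, Kdr, Flt1, Abcc9, Cldn5, Vegfa and Itm2a), and ACGTG in 16.6% of all and in 2 of the 21 (Slc2a1 and Mfsd2a). A motif of ETS factors, CGGAAG, was in 13.8% of all promoters and in 1 of the 21 (Tie1), and one of SOX factors, ACAAT, in 28.3% and in 5 (Rgs5, Emcn, Tek, Slco1a4 and Ctla2a). The STAT motif TTCNNNGAA was in 7.18% of all and in 1 of the 21 (Ctla2a), and a steroid receptor motif, AGAACA, in 16.2% of all and in 4 (Tek, Vtn, Ctla2a and Acta2). Both strands were searched for each motif. These are matches of letters in a window, not sites of binding.

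Defining genes of each vessel class were read in every library, with at least 86 reads for Cldn5, 279 for Pdgfrb and 65 for Acta2, the actin of smooth muscle. Among the endothelial genes, Bsg, which encodes basigin and is also made by other brain cells, was the most abundant: it lay at 145 to 179 FPKM (median 158) in the arm labelled WT, 147 to 175 (157) in the untrained arm labelled KO and 160 to 202 (169) in the trained arm. Slc2a1, the gene of GLUT1, which astrocytes make too, followed with a mean of 36.1 FPKM over all libraries, and Itm2a, Egfl7 and Mfsd2a came next with means of 17.8, 13.1 and 13.1 FPKM. At the other end stood Icam2 with 1.16, Sox18 with 1.34 and Kdr, the main VEGF receptor of growing vessels, with 1.56 FPKM. Icam2 rested on 9 to 39 reads a library and Sox18 on 20 to 62, so these genes are measured least precisely. Icam2 passed the filter on low values with a mean of 0.940 FPKM in the arm labelled WT and 1.44 in the trained arm.

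The pericyte gene with the highest level was Vtn, which encodes the matrix protein vitronectin. Its range was 23.3 to 32 FPKM (median 27.7) in the arm labelled WT, 23.7 to 33.8 (31.1) in the untrained arm labelled KO and 25.4 to 34.9 (29.0) in the trained arm, and the 3 ranges overlapped over most of their width. Myl9, a myosin light chain of contractile cells, led the smooth muscle genes with 5.33 to 13.0 FPKM (median 8.44), 6.64 to 10.5 (7.57) and 7.38 to 11.1 (8.17) in the same order. In the arm labelled WT the SD was 40% of the mean for Icam2, 33.0% for Tagln and 32.2% for Acta2, against 7.70% for Bsg and 9.41% for Ramp2.

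Between untrained mice of the 2 genotype labels no vessel gene passed the test. Between the untrained arms labelled KO and WT, 0 of 32 genes had an adjusted p under 0.05 (limma, adjusted over 12572 genes), where 1.42% of all genes did. At an unadjusted p under 0.05 there were 2 of the 32 (6.25%) and 12.7% of all genes. Slco1a4, the gene of an organic anion carrier of the barrier, went from 8 to 12.7 FPKM (median 9.51) in the arm labelled WT to 6.24 to 10.4 (8.53) in the one labelled KO, a log2 change of -0.20 ± 0.0907 (SE, adjusted p = 0.372). Abcc9, which encodes a subunit of the pericyte potassium channel, went from 1.25 to 1.6 FPKM (1.38) to 0.862 to 1.37 (1.19), a log2 change of -0.16 ± 0.0594 (adjusted p = 0.248). In both genes the ranges of the 2 arms overlapped.

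The class medians lay near 0 in that comparison. Of the 24 endothelial genes 12 lay above 0 and 12 below, with a median log2 change of 0.00 against -0.001 for all genes tested, and the medians of the 4 pericyte and 3 smooth muscle genes were -0.06 and -0.01. Vegfa, the ligand, differed by 0.01 ± 0.0740 on the log2 scale. Its receptors Kdr and Flt1, the second of which also acts as a VEGF trap, differed by 0.09 ± 0.0784 and -0.10 ± 0.107. Claudin-5, the defining junction protein, differed by -0.07 ± 0.142 in its gene Cldn5, with a 95% interval from -0.37 to 0.23. The 95% intervals of the 24 endothelial genes lay between -0.39 and 0.38, which is the size of difference that 8 mice an arm leave possible here.

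**Figure D1:**
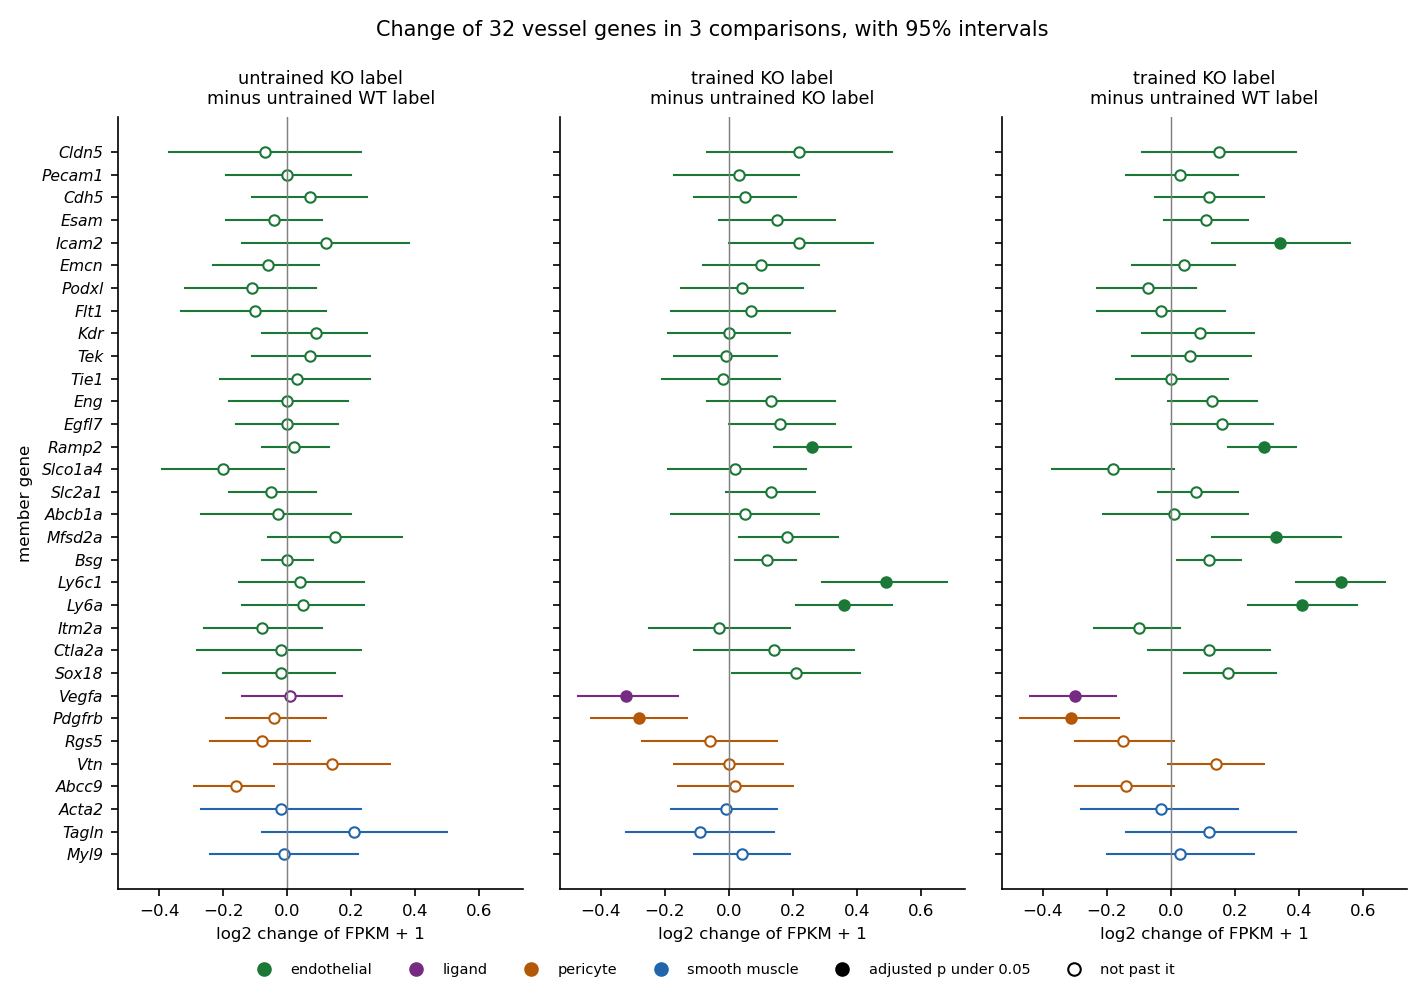
Log2 change (horizontal axis, on the scale of FPKM + 1) of the 32 vessel genes (vertical axis) in 3 comparisons of arms, with points for the limma estimate and lines for its 95% interval; filled points have an adjusted p under 0.05. No point is filled on the left, 5 are in the middle panel and 7 on the right, where Ly6c1 and Ly6a lie farthest to the right and Vegfa and Pdgfrb farthest to the left; the 3 panels share arms with each other.

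Training within the mice labelled KO went with changes in 5 of the 32 genes, 15.6% of them, where 5.67% of all genes tested passed. The genes were chosen with earlier results of these data known, so these shares are given as a description. The endothelial surface genes Ly6c1 and Ly6a and the receptor subunit gene Ramp2 rose, and the ligand gene Vegfa and the pericyte receptor gene Pdgfrb fell. The other 27 did not pass, among them Cldn5, Cdh5, Pecam1 and Esam, which encode proteins of the contacts between endothelial cells. At an unadjusted p under 0.05 there were 8 of the 32 (25%), near the 23.8% of all genes.

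Ly6c1 encodes a small lipid-anchored surface protein that is a common marker of mouse brain capillaries. Its level was 7.84 to 12.1 FPKM (median 9.41) in untrained mice labelled KO and 11 to 17.9 FPKM (13.2) in trained mice. The ranges overlapped in a narrow band, and 6 of the 8 trained libraries lay above every untrained one. The log2 change was 0.49 ± 0.0928 (SE), a 1.40-fold rise of FPKM + 1, with an adjusted p of 0.00763.

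Ly6a, the gene of Sca-1, belongs to the same protein family and lies near Ly6c1 on chromosome 15, at 74994877 to 74998031 in GRCm38.p6. It went from 9.48 to 13.3 FPKM (median 11.3) untrained to 13.1 to 18.4 FPKM (14.8) trained, and 7 of the 8 trained libraries lay above all untrained ones. The log2 change was 0.36 ± 0.0721 (adjusted p = 0.00980). Members of this family are alike in sequence, and how reads that fit more than 1 of them were counted is not given in the sources used here, so their separate levels are uncertain. The same holds for Ctla2a, Abcb1a and Slco1a4, which have close paralogs. Both Ly6c1 and Ly6a passed whichever of the 16 libraries was left out.

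Ramp2 encodes the partner that makes the calcitonin-like receptor a receptor for adrenomedullin, a peptide that endothelial cells need for stable vessels. It measured 7.96 to 10.6 FPKM (median 9.03) in untrained mice labelled KO and 9.29 to 12.3 FPKM (11.4) in the trained ones. In 6 of the 8 trained libraries Ramp2 was above every untrained one, and the log2 change was 0.26 ± 0.0574 (adjusted p = 0.0163). After the values were corrected for GC content and length the change was 0.20 and the adjusted p 0.0536, which no longer passed, while the other 4 genes still did (8.04% of all genes passed after that correction).

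Vegfa was the largest decrease among the vessel genes. Untrained libraries labelled KO spanned 12.5 to 20.9 FPKM (median 17.5) and trained ones 12.7 to 15.1 FPKM (13.7). The trained arm was the narrower one, with an SD of 0.83 FPKM against 2.76, and the lowest untrained value belonged to male untrained library 3 labelled KO, the one with few cortical neuron markers. The log2 change was -0.32 ± 0.0746 (adjusted p = 0.0224). Without that library the untrained range was 15.4 to 20.9 FPKM, above every trained library, and the change was -0.37 ± 0.0579 (adjusted p = 0.00150). Leaving out female trained library 1 or female untrained library 1 labelled KO ended the call of Vegfa, with log2 changes that stayed between -0.37 and -0.29 whichever library was left out.

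Pdgfrb, the receptor through which pericytes are held at the vessel, went from 4.17 to 5.73 FPKM (median 5.02) to 3.20 to 4.99 FPKM (3.85). In this gene 7 of the 8 trained libraries lay below every untrained one, and the exception was male trained library 4. The log2 change was -0.28 ± 0.0704 (adjusted p = 0.0311). Its call was the least firm: it was lost when any 1 of 8 libraries was left out (trained female 1 and 3, trained male 1 and 2, and untrained female 1, 3 and 4 and male 2 labelled KO), with changes between -0.32 and -0.25. The 3 other pericyte genes did not pass. Rgs5, a G-protein regulator and classic pericyte marker, differed by -0.06 ± 0.0996, Vtn by 0.00 ± 0.0821 and Abcc9 by 0.02 ± 0.0840.

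**Figure D2:**
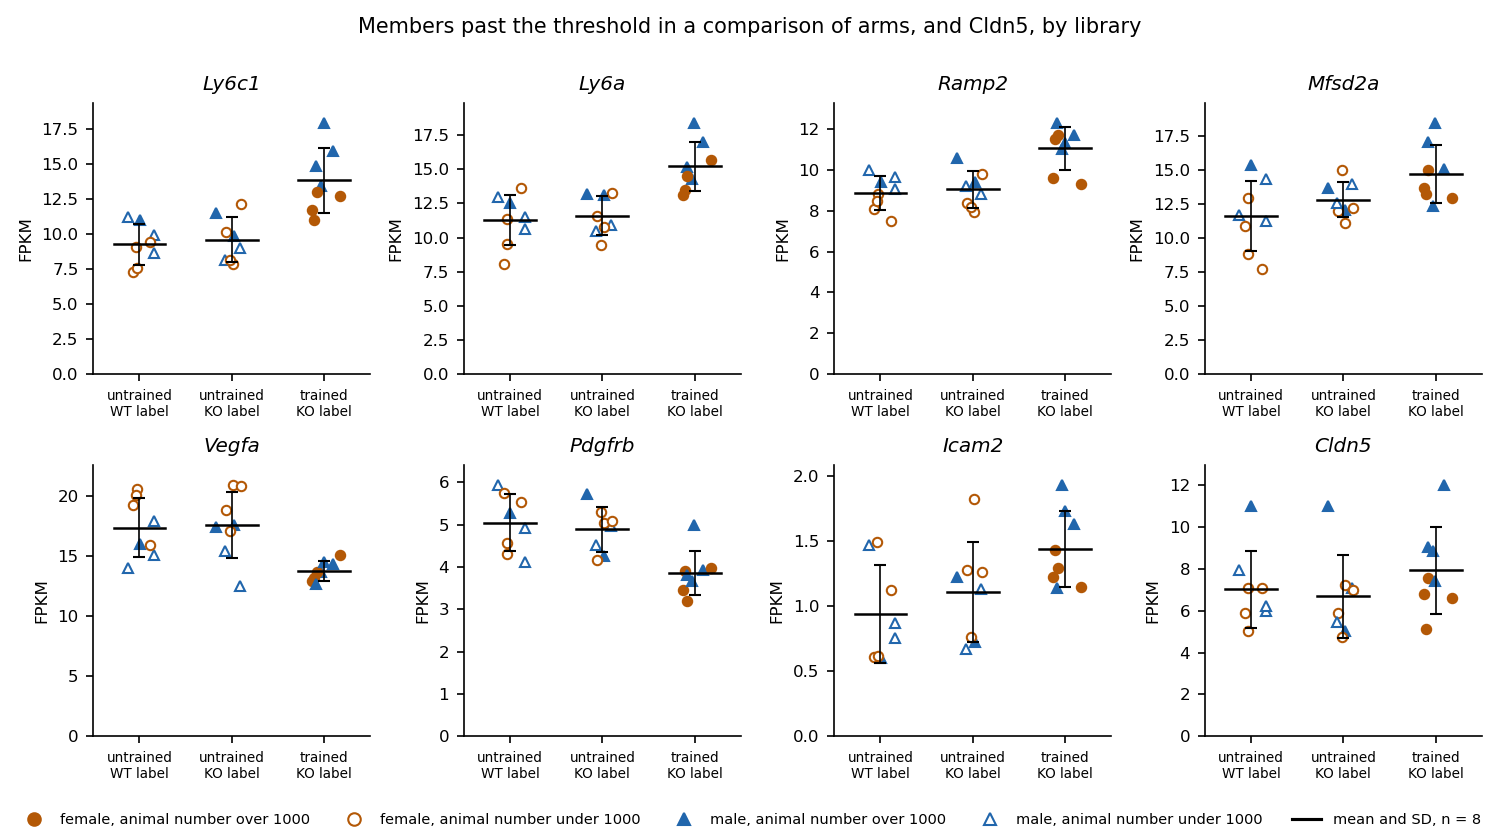
FPKM (vertical axis, from 0) of 8 genes in each of the 24 libraries by arm (horizontal axis), with bars for the mean and SD of 8 libraries; circles are females, triangles males, and filled symbols are animals numbered over 1000. Trained libraries sit high for Ly6c1 (11 to 17.9) and Ly6a (13.1 to 18.4) and low for Vegfa (12.7 to 15.1) and Pdgfrb (3.20 to 4.99), while Cldn5 spreads over the same range in all arms.

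By class, most endothelial genes lay above 0 in this comparison and the pericyte and smooth muscle genes lay on both sides. Of 24 endothelial genes 20 lay above 0, with a median log2 change of 0.12, against 0.007 over all genes tested. The median was -0.03 for the 4 pericyte genes and -0.01 for the 3 smooth muscle genes, and no smooth muscle gene passed. The pericyte median was -0.19 in females alone and 0.12 in males alone. In females the 4 genes differed by -0.35 (Pdgfrb), -0.25 (Rgs5), -0.13 (Abcc9) and -0.11 (Vtn), and in males by -0.21, 0.13, 0.17 and 0.11 in the same order, while none of the 4 passed the test of a difference between the sexes (adjusted p from 0.331 to 0.647). Among the carriers of the barrier, Mfsd2a, which takes up the omega-3 lipid DHA and holds down vesicle transport, differed by 0.18 ± 0.0736 (adjusted p = 0.142), Bsg by 0.12 ± 0.0458 (0.132) and Slc2a1 by 0.13 ± 0.0671 (0.246). Slco1a4 and Abcb1a, the gene of P-glycoprotein, differed by 0.02 ± 0.103 and 0.05 ± 0.11. Among the receptors, Kdr, Flt1, Tek and Tie1 all lay between -0.02 and 0.07, and Eng, the TGF-beta co-receptor endoglin, at 0.13 ± 0.0940. The secreted factor gene Egfl7 differed by 0.16 ± 0.0789, and the surface protein genes Emcn, Podxl, Itm2a and Ctla2a by 0.10, 0.04, -0.03 and 0.14. The widest uncertainty was on Cldn5, at 0.22 ± 0.136 with a 95% interval from -0.07 to 0.51.

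Animal number moves with training and limits these 5 calls. With a covariate for numbers over 1000, 0 of the 32 genes passed and 0% of all genes tested did. The changes kept their sign in that fit: 0.41 ± 0.158 for Ly6c1, 0.23 ± 0.117 for Ly6a, 0.18 ± 0.0951 for Ramp2, -0.42 ± 0.125 for Vegfa and -0.27 ± 0.121 for Pdgfrb, with adjusted p from 0.305 to 0.529. Within males numbered over 1000, 4 trained and 2 untrained, they were 0.50, 0.28, 0.19, -0.32 and -0.23 in the same order, and none passed (0% of all genes). The 2 untrained males of that kind had 17.4 and 17.6 FPKM of Vegfa, above all 8 trained libraries, and 13.1 and 13.2 FPKM of Ly6a, at the lower edge of the trained range. They had 9.81 and 11.5 FPKM of Ly6c1, 9.40 and 10.6 of Ramp2, and 4.27 and 5.73 of Pdgfrb. In each of these genes at least 1 of the 2 lay within the trained range. All untrained females labelled KO have numbers under 1000, so in females training and number cannot be told apart.

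In each sex alone the 5 genes kept the sign of their change. Ly6c1 differed by 0.33 in females and 0.64 in males, Ly6a by 0.31 and 0.41, Ramp2 by 0.27 and 0.26, Vegfa by -0.47 and -0.17, and Pdgfrb by -0.35 and -0.21. A test of whether the change with training differs between the sexes called 0 of the 32 genes and 0.00795% of all genes. The 4 with an unadjusted p under 0.05 in that test (12.5%, where 15.5% of all genes had one) were Emcn, Slco1a4, Vegfa and Icam2, with adjusted p from 0.172 to 0.310. The matching test for the genotype label called 0 of 32, and 0% of all genes, and no vessel gene reached an unadjusted p under 0.05.

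Further genes of the same pathways gave 3 calls among 78 genes with training, 3.85% of them, where 5.67% of all genes passed. Of 19 genes of VEGF, angiopoietin and Notch signalling, 1 fell and 0 rose: the Notch ligand gene Jag2, from 7.22 ± 0.873 FPKM (SD, n = 8) to 5.45 ± 1.03, a log2 change of -0.36 ± 0.0860 (adjusted p = 0.0239). Of 17 further genes of junctions and barrier structure, 2 rose and 0 fell. Lsr, which encodes angulin-1 at the corners where 3 cells meet, went from 1.55 ± 0.532 to 2.54 ± 0.433 FPKM (log2 change 0.49 ± 0.114, adjusted p = 0.0217), and Jam3, a junctional adhesion molecule, from 15.1 ± 1.46 to 17.9 ± 1.56 FPKM (0.24 ± 0.0650, 0.0404). None of 16 genes of the Wnt signal that induces the barrier passed, nor any of 12 further transporters, 10 further pericyte genes and 4 further smooth muscle genes. Between the untrained arms none of these 6 lists held a gene that passed.

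Markers of other cell types were read beside this comparison. None of 8 astrocyte, 5 microglia and macrophage, 6 neuron, 6 oligodendrocyte, 6 cortical excitatory neuron, 6 striatal and 8 fibroblast and meningeal markers passed between trained and untrained mice labelled KO, and no list had a marker at 0 in a whole arm. The summed level of the astrocyte markers was 877 to 1138 FPKM untrained and 816 to 1057 trained, that of the oligodendrocyte markers 660 to 1220 and 985 to 1646, and that of the fibroblast and meningeal markers 24.5 to 59.1 and 39.9 to 65.1. Of 6 choroid plexus markers 1 was tested, and their sum reached 86.4 FPKM in female trained library 1 against 15.0 at most among the untrained libraries labelled KO. Of 5 red cell markers 1 was in the table, Alas2, at 0.0292 to 2.69 FPKM untrained and 0.0504 to 1.48 trained. The part of these cells in the vessel genes' changes was not tested.

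Single libraries moved many vessel genes together. Male trained library 4 had the highest value of its arm in 16 of 24 endothelial and 4 of 4 pericyte genes, and female trained library 2 the lowest in 13 endothelial genes. Male untrained library 2 labelled KO was highest in 13 endothelial genes of its arm, and male library 3 labelled WT in 9. The mean level of the endothelial class, as log2(FPKM + 1), spanned 2.68 to 3.01 in the arm labelled WT, 2.67 to 3.06 in the untrained arm labelled KO and 2.78 to 3.19 in the trained arm. The medians were 2.85, 2.83 and 2.98, so the range within an arm was wider than the distance between arms. Without male trained library 4, 6 of the 32 genes passed with training (18.8%), where 7.52% of all genes did. These were the 5 named above and Bsg. The pericyte class spanned 3.11 to 3.33, 3.01 to 3.33 and 2.95 to 3.45 in the same order.

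**Figure D3:**
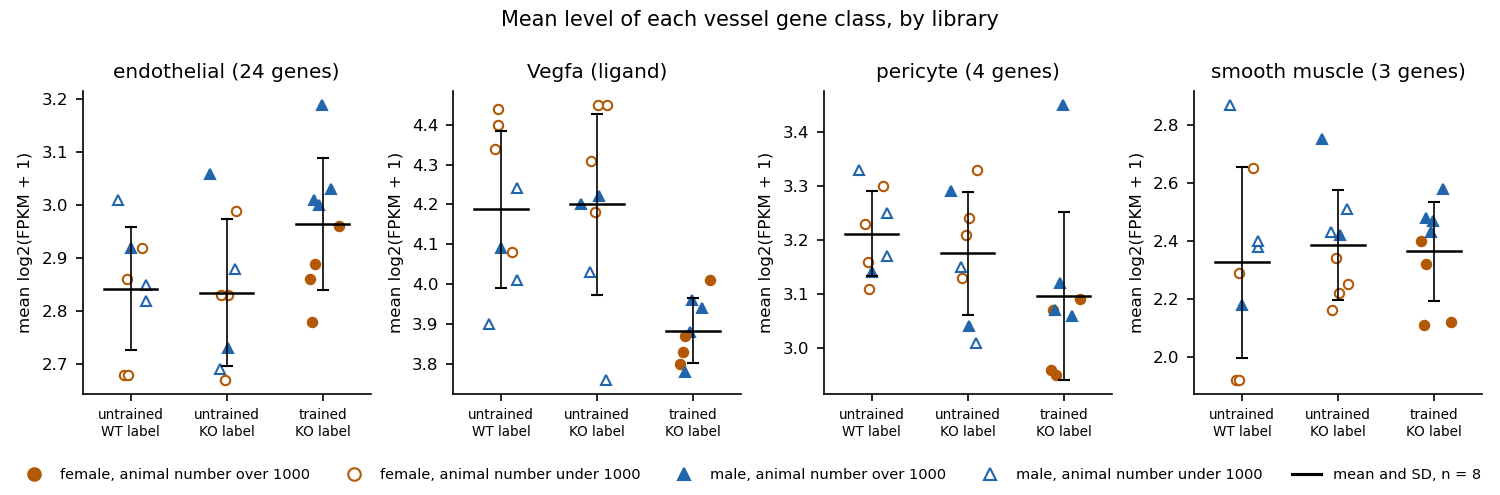
Mean log2(FPKM + 1) of the genes of each class (vertical axes, which do not start at 0) in each library by arm (horizontal axis), with bars for the mean and SD of 8 libraries; circles are females, triangles males, and filled symbols are animals numbered over 1000. The endothelial class overlaps between arms (2.67 to 3.06 untrained and 2.78 to 3.19 trained among libraries labelled KO), and 1 trained male stands above the rest in the endothelial and pericyte panels.

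Against the untrained mice labelled WT, the trained mice labelled KO differed in 7 of the 32 vessel genes, 21.9% of them. This is near the 24.5% of all genes that passed in this pair of arms, which differ in both genotype label and training and share libraries with the other 2 comparisons. Ly6c1 (7.25 to 11.2 FPKM, median 9.25, labelled WT) lay 0.53 ± 0.0682 higher in trained libraries on the log2 scale (adjusted p = 5.63e-05). Ly6a (8.06 to 13.6 FPKM, median 11.5) lay 0.41 ± 0.0801 higher (0.00168). Ramp2 (7.48 to 10 FPKM, 8.95) lay 0.29 ± 0.0516 higher (0.000940). In all of these the trained values given above overlapped those labelled WT in part, with 6 or 7 of 8 trained libraries above every one of them.

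Mfsd2a and Icam2 passed in this pair of arms and in no other. Mfsd2a was 7.77 to 15.4 FPKM (median 11.5) in libraries labelled WT, 11.1 to 15.0 (12.4) in untrained ones labelled KO and 12.4 to 18.5 (14.4) in trained ones. Trained libraries lay 0.33 ± 0.0959 above those labelled WT (adjusted p = 0.0176), with 2 of 8 above all of them. The highest library labelled WT, at 15.4 FPKM, is the 1 mouse of that arm with a number over 1000, and with the covariate for such numbers the difference was 0.05 ± 0.201 (adjusted p = 0.965). Icam2, an adhesion molecule of resting endothelium, was 0.598 to 1.49 FPKM (median 0.812), 0.668 to 1.82 (1.17) and 1.14 to 1.93 (1.36) in the same order, and its difference between trained libraries and those labelled WT was 0.34 ± 0.105 (adjusted p = 0.0226). After correction for GC content and length it was 0.26 ± 0.116 (adjusted p = 0.104) and did not pass. Icam2 reached the filter on low values through the arms labelled KO, with means of 1.11 and 1.44 FPKM against 0.940 labelled WT, so its call is given as a description. Both genes thus lay between the other arms in the untrained libraries labelled KO, and overlapped with both.

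The genes that were lower were again Vegfa and Pdgfrb. Vegfa was 14.0 to 20.6 FPKM (median 17) in libraries labelled WT and fell by 0.30 on the log2 scale with an SE of 0.0651 (adjusted p = 0.00314), with 5 of 8 trained libraries below all of those labelled WT. Pdgfrb was 4.13 to 5.94 FPKM (5.10) there and differed by -0.31 ± 0.0746 (0.00609), with 7 of 8 below. Without male trained library 4, the one with high vessel genes, 12 of the 32 passed (37.5%, where 27.2% of all genes did). With a covariate for numbers over 1000, which rests on 1 mouse labelled WT, 0 of the 32 did, and 0.175% of all genes.

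Of the 78 genes of the further lists 19 passed in this pair of arms, 24.4% of them, near the 24.5% of all genes. Rises and falls in these lists are of trained libraries against those labelled WT. Of these 19 genes only Jag2 and Lsr also passed with training. Of the signalling list Nrp1, the neuropilin that serves as a VEGF co-receptor, rose by 0.36 ± 0.0935 (adjusted p = 0.0102), and Jag2 and the Notch target gene Hey1 fell (-0.35 ± 0.0866 and -0.21 ± 0.0560), 3 of 19. Of the Wnt list Wnt7a, a ligand that induces the barrier, rose (0.37 ± 0.0741) and the receptor gene Fzd4 fell (-0.29 ± 0.0904), 2 of 16. Mean Wnt7a was 2.26 ± 0.403 FPKM (SD) labelled WT, 3.16 ± 1.48 untrained labelled KO and 3.18 ± 0.355 trained. Of the 17 structure genes 2 rose, Lsr and Ocln, and 4 fell. Those that fell were Cgn and 3 genes of the basement membrane: Col4a2 (-0.29 ± 0.0559), Col4a1 (-0.19 ± 0.0583) and Lamc1 (-0.15 ± 0.0509). Cgn reached the filter on low values through the untrained arms, with means of 1.27 FPKM labelled WT and 1.19 labelled KO against 0.908 trained. Its call is therefore given as a description. Mean Col4a2 was 6.17 FPKM labelled WT, 5.17 untrained labelled KO and 4.85 trained.

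The counts that follow are of short lists, and 24.5% of all genes passed in this pair of arms. Among 12 further transporters 3 fell and none rose. These were the large amino acid carrier gene Slc7a5 (-0.25 ± 0.0627), the lactate and ketone carrier gene Slc16a1 (-0.22 ± 0.0648) and the transferrin receptor gene Tfrc (-0.36 ± 0.106), which neurons also use. Among 10 further pericyte genes 3 fell and none rose: Kcnj8, the pore of the channel that Abcc9 completes (-0.27 ± 0.0685), Cspg4, the proteoglycan NG2 that oligodendrocyte precursors carry too (-0.28 ± 0.0836), and Atp13a5 (-0.21 ± 0.0748). Among 4 further smooth muscle genes Tpm2 and Cnn2 rose (0.29 ± 0.0839 and 0.38 ± 0.117). Mean Tpm2 was 1.52 FPKM labelled WT, 1.98 untrained labelled KO and 2.07 trained, and mean Cnn2 was 2.25, 2.85 and 3.22. Of 8 fibroblast and meningeal markers 4 were higher in trained libraries than in those labelled WT. The summed levels were 39.9 to 65.1 FPKM (median 53.1) trained and 30.5 to 58.1 (36.8) labelled WT. Untrained libraries labelled KO had sums of 24.5 to 59.1 FPKM (56.6). Col1a1, among the 4, reached the filter on low values through the arms labelled KO. Its means were 1.35 FPKM untrained and 1.21 trained against 0.848 labelled WT, so its call is given as a description. Of the other marker lists, 1 astrocyte marker was higher and 1 lower, 1 microglial marker higher and 2 lower, 1 neuronal marker lower and 2 cortical neuron markers higher, and their part in these results was not tested.

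Male and female libraries differed in 10 of the 32 vessel genes, 31.2% of them, where 28.6% of all genes passed. The untrained mice numbered over 1000 were all males (2 labelled KO and 1 labelled WT). No covariate for number was fitted in this comparison, so the part of animal number in it was not tested. Higher in males were Slc2a1, Bsg, Ramp2, Egfl7, Eng, Esam, Ly6c1, Acta2 and Myl9, and lower was Vegfa. Slc2a1 was 29.3 to 38.5 FPKM (median 30.6) in 12 females and 31.2 to 43.6 (40.5) in 12 males, a log2 difference of 0.26 ± 0.0530 (adjusted p = 0.00117). Vegfa was 12.9 to 20.9 FPKM (18) in females and 12.5 to 17.9 (14.8) in males, a difference of -0.18 ± 0.0604 (0.0291). In both genes the sexes overlapped.

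Of the 10 calls 8 were lost when the values were corrected for base composition. After correction for GC content and length, 2 of the 32 passed, Slc2a1 (0.18 ± 0.0523, adjusted p = 0.0477) and Vegfa (-0.22 ± 0.0592, 0.0312), where 5.15% of all genes did. Ramp2 went from 0.15 to 0.00 ± 0.0464 and Bsg from 0.14 to -0.02 ± 0.0245, within its SE of 0. Acta2 kept most of its size, from 0.26 to 0.22 ± 0.0894, with an adjusted p of 0.153. The vessel genes tested run from 40.3% GC (Slco1a4) to 60.9% (Sox18), with a median of 52.1% against 49.8% for all genes tested. The call of Vegfa was lost when any 1 of 6 libraries was left out, that of Ly6c1 with any 1 of 11 and that of Acta2 with any 1 of 8. After scaling all libraries to equal sums 5 of the 32 passed (15.6%), where 28.4% of all genes did.

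**Figure D4:**
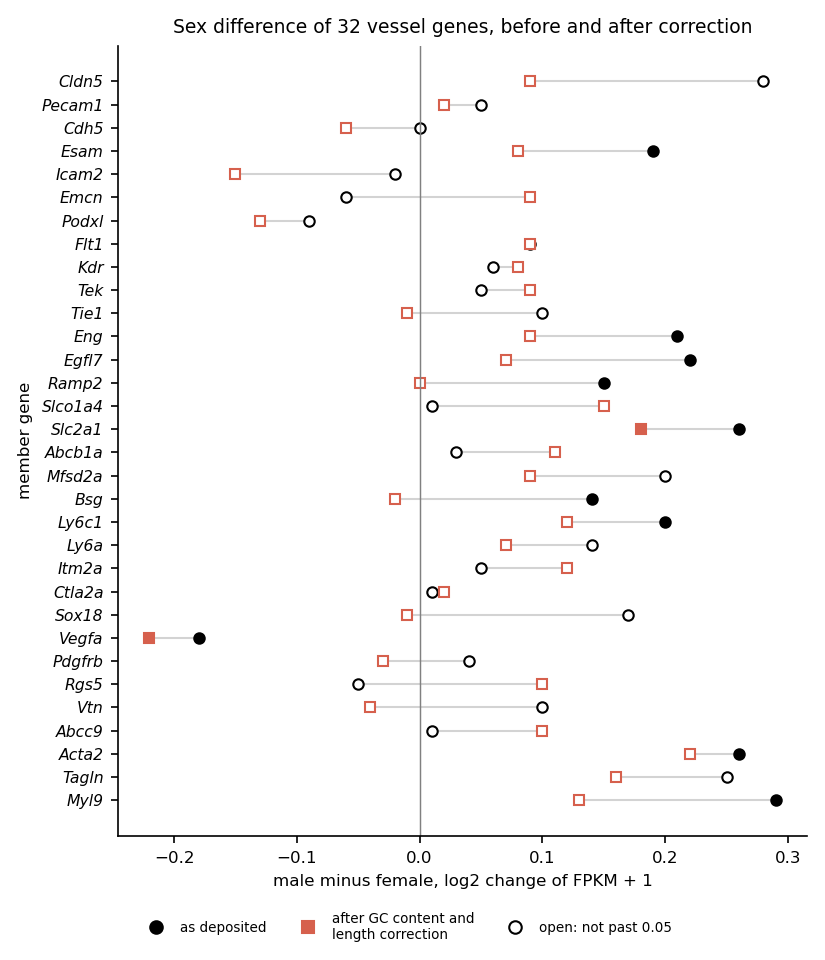
Difference between 12 male and 12 female libraries (horizontal axis, log2 change of FPKM + 1, male minus female) of the 32 vessel genes (vertical axis), as deposited (circles) and after correction for GC content and length (squares); filled symbols have an adjusted p under 0.05. Of 10 filled circles 8 belong to genes whose square is open, and Slc2a1 and Vegfa are filled in both.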

How the data were processed

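Bulk poly(A) RNA was sequenced from stranded libraries, per the labels' protocols. The authors deposited FPKM for 15232 genes. The submitters' processing notes name FastQC 0.11.7, Trimmomatic 0.38, STAR 2.5.3a, featureCounts, Subread 1.6.3 and the build mm10. The strand setting of the counting and the treatment of multi-mapping reads are not given in the sources used here. Columns were matched to samples by animal number.

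The vessel genes and all lists were chosen with earlier results of these data known. Genes averaging 1 FPKM or more over the libraries (12572) were tested on the log2(FPKM + 1) scale by limma 3.58.1 under R 4.3.3 (eBayes, trend=TRUE), with sex as a covariate, or arm for the sex effect, in the arms compared only, with Benjamini-Hochberg adjustment over all genes and a threshold of 0.05. Log2 changes on this scale understate the change of low genes. Whole reads behind the values were recovered from the FPKM steps for 100% of genes, within 0.01 read (0.1 read for the genes with the most reads), and the same code returned 100% exactly when tested on simulated data of 4224 genes. They give depth only and cover counting error only. The fit was tested on simulated data.

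Each library is 1 mouse, so p-values measure the spread between mice of these arms. Genes named with values by library are those that passed in a comparison of arms and the most abundant of each class. From further lists the genes that passed are named, at most 5 a list and comparison, by smallest p. GC content and length were those of the longest GENCODE transcript of each gene, for 99.4% of the genes tested and for all 32 vessel genes tested, in 20 bins each. Aplnr, Esm1, Foxs1, Actg2 and the globin genes of the lists were not matched. Python 3.11.15, numpy 2.4.6, pandas 2.3.3, scipy 1.17.1 and matplotlib 3.10.9 were used. Tried instead were 0.1 as the pseudocount, a filter at a mean of 5 FPKM or none, scaling by median ratio or to equal sums, a joint fit of the 24 libraries, a fit without sex, array weights, a block for replicate numbers, correction for GC content and length, a covariate for animal numbers over 1000, and each library left out. Fits in 1 sex, within a range of animal numbers, and with the covariate and the correction together were added after seeing the data.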

Additional observations from a re-analysis of the deposited data

Results flagged for a closer look

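In 8 of 96 tests of an arm of 8 libraries, 1 library lay farther from its neighbour than Dixon's 95% limit allows, where chance gives about 4.8. Male trained library 4 gave 6 of them, with 6.57 FPKM of Pecam1 (4.01 to 4.96 in the other 7 trained libraries), 7.23 of Podxl (5.25 to 6.10), 3.42 of Tek (1.97 to 2.52), 4.99 of Pdgfrb (3.20 to 3.97), 21.4 of Rgs5 (12.9 to 16.2) and 1.95 of Abcc9 (0.939 to 1.31). Male untrained library 2 labelled KO gave the other 2, with 11 FPKM of Cldn5 (4.74 to 7.23 in the other 7) and 5.71 of Tagln (2.73 to 3.41).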

How the results depend on the processing

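Between the untrained arms, 0 of 32 genes passed in the main analysis (2 at an unadjusted p under 0.05) and in all 30 alternatives. With training, 5 passed. A replicate block left 0 (29 genes of all, 0.231%). The block fit left out female library 4 of both arms, since the title of the trained one gives no number. The numbers name different mice. Over 7 pairs the correlation of same-numbered deviations averaged -0.07, with a range from -0.195 to 0.105. Whether same-numbered mice share more than a number was not tested. The covariate for animal numbers over 1000 left 0, also with GC content and length correction, as did males alone and males numbered over 1000 alone. In each of these fits 0% of all genes passed. In females alone 4 of the 32 passed (12.5%), where 15.7% of all genes did. Leaving out each library gave 3 to 6, with 2.62% to 7.52% of all genes passing. The 3 came without female trained library 1 or female untrained library 1 labelled KO (2.64% and 2.62% of all genes). The 6 came without male trained library 4 (7.52%). For trained mice labelled KO against untrained ones labelled WT, 7 passed (24.5% of all genes). Leaving out libraries gave 7 to 12, the 12 without male trained library 4, with 18.8% to 27.2% of all genes passing. The covariate left 0, with or without the correction (0.366% and 0.175% of all genes). In males alone 2 passed (1.46% of all genes) and in females alone 8 (25.7%). Between the sexes 10 passed (28.6% of all genes). Leaving out libraries gave 7 to 12, with 23.8% to 33.7% of all genes passing. Scaling to equal sums left 5 (28.4% of all genes). Correction for GC content and length left 2 (5.15% of all genes), and under it Bsg went to -0.02. Both interaction tests gave 0 in all 17 alternatives each. The cause of these changes was not tested. Of 364 class medians under alternatives, 357 moved by less than the spread between libraries. The 7 others were of pericyte or smooth muscle genes, in fits with the covariate, in 1 sex alone or with the filter at 5 FPKM. With training, the smooth muscle median ran from -0.25 to 0.04 over the alternatives and the endothelial one from 0.01 to 0.20. Genes of few reads, such as Icam2 (9 to 39 reads), are limited by depth.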

Other observations

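Sox17, which encodes an endothelial transcription factor of arteries and of the barrier, was left out of the tests for its low level. It was read 15 to 50 times a library. Its range was 0.319 to 0.632 FPKM (median 0.53) in libraries labelled WT, 0.325 to 0.820 (0.463) in untrained ones labelled KO and 0.209 to 0.523 (0.400) in trained ones. With no filter on low values its log2 change was -0.14 ± 0.0666 with training (adjusted p = 0.242) and -0.14 ± 0.0493 between trained libraries and those labelled WT (0.0474). Sox18, of the same family, went the other way, from 0.837 to 1.84 FPKM (median 1.11) untrained to 0.974 to 2.16 (1.54) trained, with a log2 change of 0.21 ± 0.0943 (adjusted p = 0.190). In both genes the arms overlapped.

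Between the sexes 13 of 78 genes of the further lists passed, 16.7% of them, where 28.6% of all genes did. Of 19 signalling genes 4 passed: Vegfb (0.26 ± 0.0501) and Pgf (0.20 ± 0.0617), which encode further VEGF family ligands, were higher in males, and Hif1a (-0.22 ± 0.0383) and the endothelial peptide gene Apln (-0.23 ± 0.0703) were lower. Of 10 further pericyte genes, 3 were higher in males (Ndufa4l2, Notch3 and Cspg4) and none was lower. After correction for GC content and length, with 5.15% of all genes passing, 1 of the 13 passed, Apln (-0.30 ± 0.0709, adjusted p = 0.0151).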
